A study of Mus musculus with 2 samples.

Results

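The 10 genes described here move calcium back into the sarcoplasmic reticulum of muscle, hold it there, or bind it in the cytosol. They are the 3 reticulum calcium pump genes Atp2a1, Atp2a2 and Atp2a3, the pump regulators Sln and Pln, the lumenal store genes Casq1, Casq2, Srl and Hrc, and the cytosolic buffer gene Pvalb. They were chosen by name for their known function, and each of the 10 symbols matched 1 gene, out of 55536 annotated genes and 22028 protein-coding genes in the tables. Total RNA was sequenced from gastrocnemius, the large calf muscle, of male B6CASTF1/J mice at 10 days of age, a hybrid strain whose parental lines the labels abbreviate as B6 and Cast. The study has 1 group of 2 libraries, labelled as biological replicates 1 and 2, each from 300 ng of RNA, with no treatment or altered allele named. The mice have separate animal numbers and 1 shared donor code in the labels. With no second condition, no gene was tested, and an exact sign-flip permutation test over 2 libraries cannot give a p below 0.5. The data therefore describe levels and the spread between 2 samples of whole muscle, which holds several cell types.

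A muscle fibre contracts when calcium leaves the sarcoplasmic reticulum and relaxes when the pumps of the SERCA family return it at the cost of ATP. Inside the reticulum, calsequestrin and related acidic proteins bind the stored calcium loosely, close to the release channels. Parvalbumin takes up calcium in the cytosol of fast fibres, while the small membrane peptides sarcolipin and phospholamban slow the pumps. Fast fibres are known to use SERCA1 (Atp2a1) and calsequestrin 1, and slow fibres and heart to use SERCA2a (from Atp2a2) and calsequestrin 2.

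Each of the pump genes Atp2a1 and Atp2a2 makes transcripts whose coding sequences part near the end, and the endings are shown because the transcript shares given later turn on them. They were read from GENCODE M21 transcripts on mm10, 5′ to 3′. Lower case marks the last 30 bases that a pair shares and capitals mark the coding bases of its own, the stop codon included. The shared Atp2a1 bases close exon 21 (chr7:126446871-126446900, minus strand). The adult form SERCA1a then reads 5 bases from exon 22, a 42-base exon at chr7:126446545-126446586. The neonatal form SERCA1b skips exon 22 and reads 26 bases from the last exon, chr7:126445858-126446126. For Atp2a2 the shared bases lie at the end of an exon on chr5, minus strand. Atp2a2-202, which encodes SERCA2a, is spliced from there to an exon whose coding part ends at 122454291. Atp2a2-201, which encodes SERCA2b, reads on without a splice (chr5:122457151-122457332).
Atp2a1-201: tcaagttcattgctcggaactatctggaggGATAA
Atp2a1-202: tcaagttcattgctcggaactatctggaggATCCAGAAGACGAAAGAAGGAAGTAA
Atp2a2-202: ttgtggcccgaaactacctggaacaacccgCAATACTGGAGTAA
Atp2a2-201: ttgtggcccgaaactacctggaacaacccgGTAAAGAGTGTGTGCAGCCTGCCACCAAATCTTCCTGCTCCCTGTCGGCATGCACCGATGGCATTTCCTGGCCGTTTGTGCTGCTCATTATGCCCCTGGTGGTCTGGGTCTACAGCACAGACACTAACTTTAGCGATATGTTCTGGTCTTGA
In these sequences the Atp2a1 forms differ by 5 against 26 own bases, and the Atp2a2 forms by 14 against 152.

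The pump regulators are encoded by very short reading frames, shown whole because they are the members with the fewest counts. Capitals mark the start and stop codons. The Sln frame is 96 bases (chr9:53853473-53853568, plus strand) and the Pln frame is 159 bases (chr10:53343864-53344022, plus strand), both in GENCODE M21 on mm10.
Sln-201: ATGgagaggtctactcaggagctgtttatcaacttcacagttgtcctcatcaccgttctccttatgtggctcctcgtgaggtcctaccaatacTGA
Pln-201: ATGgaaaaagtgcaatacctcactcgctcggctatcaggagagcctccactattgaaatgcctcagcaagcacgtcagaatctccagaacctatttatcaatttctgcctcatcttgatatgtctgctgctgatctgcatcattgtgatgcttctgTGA

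Both libraries were sequenced to similar depth, 38874862 expected counts for replicate 1 and 38160786 for replicate 2. A gene with 3 counts and 1000 bases of effective length would stand at 0.0925 TPM and 0.0924 TPM, which gives the scale of the lowest levels. TPM, the unit of all levels here, is relative abundance corrected for transcript length, taken from the deposited gene table, and it allows genes of 1 library to be compared. As a check of the tissue label, all 9 genes listed as fast fibre markers were detected, and they summed to 98905 and 100099 TPM. The list includes Acta1, at 22684 and 24109 TPM, and Ckm, at 11271 and 12243 TPM. How particular the listed genes are to fast fibres was not tested. Of the heart markers, Nppa and Myl7 were listed at 0 in both libraries, and the 7 heart markers summed to 70.1 and 81.6 TPM. Most of that sum was Myh6, at 38.5 and 49.5 TPM, for which the second table gave 18.2 and 15.8 TPM, the opposite order of the libraries. Slow fibre markers summed to 776 and 1123 TPM, and all 6 of 6 were over 1.2-fold higher in replicate 2, against 10.3% of protein-coding genes.

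The levels of the calcium genes ran from Pvalb, Atp2a1 and Casq1 among the most abundant protein-coding RNAs to Pln near the limit of detection. Together they held 14435 TPM in replicate 1 and 13708 TPM in replicate 2. By expected counts, which are not corrected for length, they took 2.33% of all endogenous counts in each library. Atp2a1, Casq1 and Pvalb made up 92.5% and 92.3% of the summed TPM. Of the 10 genes, 9 reached 1 TPM in both libraries, against 51.4% of all protein-coding genes. In bulk muscle, a low level can come from few cells or from little RNA per cell, and these cannot be told apart.

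**Figure D1:**
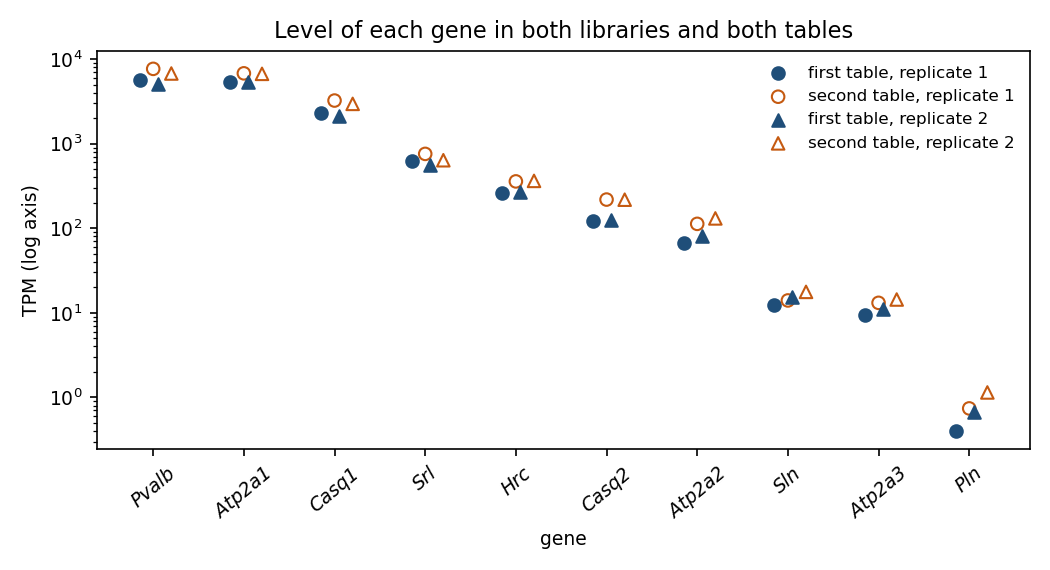
Level of the 10 genes in TPM (log axis), ordered by mean, in replicate 1 (circles) and replicate 2 (triangles), with filled symbols for the deposited gene table and open symbols for the second deposited table. Replicates lie close together beside the whole range over genes. In the gene table it runs from above 5000 TPM for Pvalb and Atp2a1 to below 1 TPM for Pln. The values of Pvalb and Atp2a1 overlap, and in the second table so do those of Sln and Atp2a3.

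Among the pumps, Atp2a1 was far above the others. Atp2a1 (ENSMUSG00000030730.12, chr7:126445858-126463108, minus strand) encodes SERCA1, the main pump of fast fibres. It reached 5365 TPM in replicate 1 and, in replicate 2, 5419 TPM, with a mean of 5392 ± 38.4 TPM (SD, n = 2). That mean placed it at rank 12 among protein-coding genes, and both libraries lay close to it. Atp2a2 (ENSMUSG00000029467.15, chr5:122453513-122502225, minus strand), which encodes SERCA2, stood at 66.2 and 80.5 TPM in replicates 1 and 2 (mean 73.3 ± 10.1, SD, n = 2, rank 756). Atp2a3 (ENSMUSG00000020788.15, chr11:72961169-72993044, plus strand), whose product SERCA3 is best known from blood and epithelial cells, had 9.53 TPM and 11.1 TPM (mean 10.3 ± 1.07, SD, n = 2, rank 4919). The ranges of the 3 pumps did not overlap.

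As shares of the summed TPM of the 3 pumps, Atp2a1 held 98.6% in replicate 1 and 98.3% in replicate 2. Atp2a2 held 1.22% and 1.46%, and Atp2a3 held 0.175% and 0.201%. Within a library, Atp2a1 thus exceeded Atp2a2 by 80.9-fold in replicate 1 and 67.3-fold in replicate 2, on TPM with 0.1 added. A protein-coding gene on the other strand, Rabep2, overlaps the Atp2a1 locus, and no source used here says whether reads were counted by strand. Rabep2 was at 4.86 and 4.90 TPM, far below Atp2a1.

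Most Atp2a1 RNA was assigned to the adult form. Atp2a1-201, which holds exon 22, had 4574 and 4646 TPM in replicates 1 and 2, or 85.3% and 85.7% of the gene. The exon-skipping Atp2a1-202 had 791 TPM and 773 TPM, or 14.7% and 14.3%. The annotated Atp2a1-202 is incomplete: it has 5 exons and 681 bases, against 23 exons and 3477 bases for Atp2a1-201, so reads from earlier exons can be given only to the long form. The second table, made from the reads with a transcript index, gave Atp2a1-202 11.6% as the mean of both libraries. Even at that lower share, the RNA carrying the neonatal type of ending, at 814 and 751 TPM in the second table, stood above the whole of Atp2a2 there, at 113 and 131 TPM.

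For Atp2a2, the larger part was the form of heart and slow muscle. Atp2a2-202, with 998 coding codons, held 41.6 and 50.4 TPM in replicates 1 and 2, which was 62.9% and 62.7% of the gene. The transcripts with 1044 codons, which end as SERCA2b, the housekeeping form present in most cells, held 35.1% and 35.5%. Of these, Atp2a2-201 made up 30.4% and 31.2% of the gene, and Atp2a2-203, annotated as subject to nonsense-mediated decay, the rest. In the second table Atp2a2-202 held 71.8% and 71.1% of the gene, so the exact split depended on the table while its order did not. Both forms had higher TPM in replicate 2, with 23.2 TPM in replicate 1 and 28.6 TPM in replicate 2 for the 1044-codon transcripts.

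The small Atp2a3 signal was divided among 7 annotated transcripts. Atp2a3-201 held 50.5% of the gene in replicate 1 and 30.9% in replicate 2. Atp2a3-203 held 30.9% and 38.3%. In the second table Atp2a3-201 led in both libraries, with 52.8% and 48.6% against 27.5% and 42.5% for Atp2a3-203. The deposited TPM intervals of the transcripts, whose level is not stated, overlapped in replicate 2 (0.19 to 5.47 for Atp2a3-201 and 1.32 to 5.54 for Atp2a3-203). On 1279 and 1503 expected counts for the gene, the order of these transcripts in replicate 2 was not settled.

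**Figure D2:**
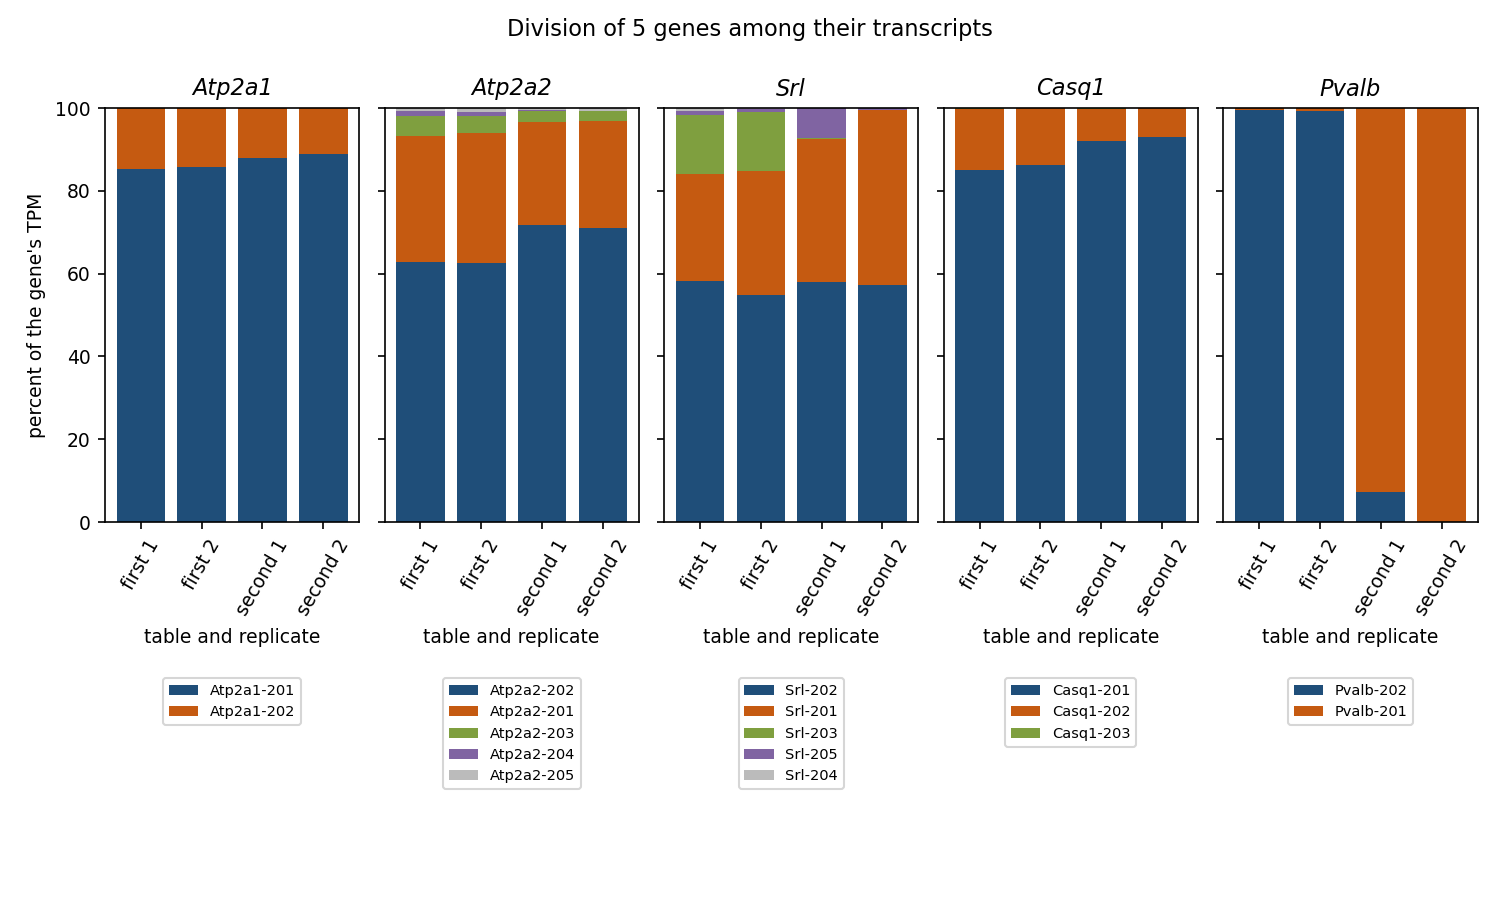
Percent of a gene's TPM in each annotated transcript (stacked bars from 0) for 5 genes, in replicates 1 and 2 of the first transcript table and of the second. Replicates within a table are mostly alike, Atp2a1-202 lies between 11.2% and 14.7% in every bar, and Pvalb is given to opposite transcripts by the tables.

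Both pump regulators were far below Atp2a1, and they were also below Atp2a2, which was at 66.2 and 80.5 TPM. Sln (ENSMUSG00000042045.6, chr9:53850164-53854560, plus strand) encodes sarcolipin and has 1 annotated transcript. It stood at 12.3 TPM in replicate 1 and at 15.3 TPM in replicate 2 (mean 13.8 ± 2.14, SD, n = 2, rank 3862). Within a library, Atp2a1 exceeded Sln by 432-fold in replicate 1 and 351-fold in replicate 2. Sln was the 1 member for which the tables differed by over 0.5 on the log2 scale once both were rescaled to nuclear protein-coding genes, with the second table lower (log2 difference -0.53). Of 13120 genes, 9.66% differed by that much. Over the members the difference ran from -0.53 to 0.09, and the median over all genes was -0.17.

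Pln (ENSMUSG00000038583.13, chr10:53337667-53345987, plus strand) encodes phospholamban, the pump regulator of heart and slow fibres. It was at 0.40 TPM in replicate 1 and 0.67 TPM in replicate 2, on 15 and 25 expected counts. These were the lowest levels of the 10 genes. The ratio of Sln to Pln was 4.48 ± 0.22 on the log2 scale (SD, n = 2, pseudocount 0.1 TPM), and it fell to 3.27 with a pseudocount of 1 TPM. Cep85l, a protein-coding gene on the opposite strand, covers part of the Pln locus and had 2377 and 2181 expected counts, so even the few Pln counts are uncertain. The 6 annotated Pln transcripts encode the same 52 codons, and the tables divided the counts among them differently.

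Other regulators of the pump are likewise short membrane peptides. The highest was Mrln, which encodes myoregulin, a skeletal muscle inhibitor of the pump, at 64.9 TPM in replicate 1 and 60.3 TPM in replicate 2. It stood above both Sln and Pln in each library. 1810037I17Rik, the gene of another-regulin, had 10.98 and 12.74 TPM, close to Sln. Smim6, the gene of endoregulin, was listed at 0 TPM with 0 counts in replicate 1 and at 0.04 TPM with 1 count in replicate 2. A further gene of the list, Strit1, matched no symbol in the tables. Of the 5 regulators matched, 3 reached 1 TPM in both libraries, against 51.4% of all protein-coding genes. Of the 4 with enough counts, 3 were over 1.2-fold higher in replicate 2, against 10.3% of protein-coding genes with enough counts. These were Sln, Pln on its 15 and 25 counts and, at 1.22-fold, 1810037I17Rik. With scaling by library totals, 1810037I17Rik falls under 1.2-fold. Mrln was at -0.03 on the log2 scale.

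In the lumenal store, the order was Casq1, Srl, Hrc and Casq2, with no overlap between the libraries' values. Casq1 (ENSMUSG00000007122.11, chr1:172209894-172219868, minus strand) encodes the calsequestrin of fast fibres. It reached 2281 TPM in replicate 1 and, in replicate 2, 2122 TPM, with a mean of 2201 ± 112 TPM (SD, n = 2, rank 25). Casq2 (ENSMUSG00000027861.13, chr3:102086415-102146514, plus strand), the calsequestrin of heart and slow fibres, had 122 TPM and 124 TPM (mean 123 ± 0.856, SD, n = 2, rank 457). Casq1 was thus 94.9% and 94.5% of the calsequestrin TPM.

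The spread of the calsequestrin isoforms was less uneven than that of the pump isoforms. Casq1 exceeded Casq2 by 18.6-fold in replicate 1 and 17.2-fold in replicate 2, while the ratio of Atp2a1 to Atp2a2 was over 60-fold in both. The level of Casq2 was above that of Atp2a2 in each library. In the second table the same comparisons gave 14.8-fold and 13.6-fold for the calsequestrins and 60.2-fold and 51.2-fold for the pumps.

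Sarcalumenin and the histidine-rich calcium binding protein are acidic lumenal proteins that bind calcium beside calsequestrin. Srl (ENSMUSG00000022519.14, chr16:4480216-4541816, minus strand), the sarcalumenin gene, had 615 and 560 TPM in replicates 1 and 2 (mean 588 ± 38.9, SD, n = 2, rank 73). Casq1 exceeded it by 3.71-fold and 3.79-fold. Hrc (ENSMUSG00000038239.11, chr7:45335290-45338974, plus strand) had 259 TPM and 269 TPM (mean 264 ± 6.80, SD, n = 2, rank 223), and Casq1 exceeded it by 8.79-fold and 7.89-fold. Both genes stood above Casq2 in each library.

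Several store genes were divided among coding and noncoding transcripts. Srl makes a long and a short protein by splicing, the long one being sarcalumenin and the short one a glycoprotein of the same membrane. Srl-202, with 472 codons, held 58.2% of the gene in replicate 1 and 54.8% in replicate 2. Srl-201, with 910 codons, held 25.8% and 30.1%. The short form thus had the larger share in both libraries, and it was so in the second table, at 57.9% and 57.2% against 34.6% and 42.3%. A retained-intron transcript, Srl-203, took 14.3% and 14.2% in the first table but 0.193% and 0.148% in the second. Casq1-201, the coding transcript of that gene, held 84.9% and 86.1%, and the retained-intron Casq1-202 held 14.9% and 13.8%, or 7.68% and 6.95% in the second table. Hrc was 97.7% and 98.0% Hrc-201. Casq2 was 98.7% Casq2-201 in replicate 1 and Casq2-201 alone in replicate 2. In the second table this transcript held 74.4% and 74.8%, and Casq2-202 16.5% and 15.7%. The retained-intron Casq2-203 went the other way from Srl-203 and Casq1-202, with 1.26% and 0% in the first table and 9.10% and 9.25% in the second. Total RNA can hold unspliced transcripts, and the part of these in the retained-intron shares was not tested.

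Pvalb, the cytosolic buffer, was about as abundant as the main pump. Pvalb (ENSMUSG00000005716.16, chr15:78191114-78206400, minus strand) encodes parvalbumin, which speeds relaxation of fast fibres. It reached 5705 TPM in replicate 1 and, in replicate 2, 5107 TPM, with a mean of 5406 ± 423 TPM (SD, n = 2, rank 11). In replicate 1 it exceeded Atp2a1 by 0.09 on the log2 scale, and in replicate 2 it was below it, at -0.09. The order of these 2 genes was thus not settled by the data, while all other neighbours in the order of the 10 had values that did not overlap between genes in the first table. In the second table Sln (14.0 and 17.7 TPM) and Atp2a3 (13.1 and 14.4 TPM) overlapped too.

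Which Pvalb transcript carried this RNA could not be read from the tables. The 2 annotated transcripts encode the same 110 codons and start 2163 bases apart. The first table gave Pvalb-202, which starts upstream at position 78206400, 99.5% of the gene in replicate 1 and 99.2% in replicate 2. The second table gave Pvalb-202 7.33% and listed it at 0 in replicate 2, and assigned the rest to Pvalb-201, which starts at 78204237. The tables thus contradict each other for this gene, while for the gene as a whole the second table gave 7660 and 6750 TPM. The 64-base first exon of Pvalb-202 and the first 85 bases of Pvalb-201 tell the forms apart at their 5′ ends.

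The 250 bases before each Pvalb start are shown because the contradictory calls would put the promoter at one or the other. They are RefSeq promoter windows on GRCm38.p6, minus strand, 5′ to 3′, the upstream window at chr15:78206401-78206650 and the downstream window at chr15:78204238-78204487. Capitals mark letters matching an E-box (CANNTG, a palindrome and so the same on both strands) or a MEF2 site, both motifs of muscle transcription factors. TATAAA was searched as well, on both strands, and the motifs marked here do not overlap.
Pvalb-202 upstream window: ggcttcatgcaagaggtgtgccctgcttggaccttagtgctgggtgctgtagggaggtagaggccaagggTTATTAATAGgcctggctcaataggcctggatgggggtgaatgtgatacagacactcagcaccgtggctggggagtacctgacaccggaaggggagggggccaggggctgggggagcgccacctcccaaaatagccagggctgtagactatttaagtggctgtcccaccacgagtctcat
Pvalb-201 upstream window: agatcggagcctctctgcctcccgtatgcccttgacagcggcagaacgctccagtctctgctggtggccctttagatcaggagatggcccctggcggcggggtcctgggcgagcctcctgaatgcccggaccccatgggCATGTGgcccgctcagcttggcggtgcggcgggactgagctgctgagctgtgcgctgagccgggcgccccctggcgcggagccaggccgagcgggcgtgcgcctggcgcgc
The Pvalb-202 window held a MEF2 match beginning 180 bases before the start and no E-box, and the Pvalb-201 window held an E-box beginning 111 bases before the start and no MEF2 match. Neither window held TATAAA. Of 32851 RefSeq windows of the same length, 2.92% held a MEF2 match, 66.2% an E-box and 12.4% TATAAA. Promoter entries were found for 7 of the 10 genes, with 8 windows in all, of which 6 held an E-box, 2 a MEF2 match (Casq2 and Pvalb) and 1 TATAAA (Pln). A match is a string of letters and no evidence of binding.

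Between the libraries, the abundant members differed little and the low pump and regulator genes were higher in replicate 2. The ratio of replicate 2 over replicate 1 was taken on counts scaled by TMM, and intervals are exact binomial 95% intervals, which cover counting error only. Of the 10 genes, 4 were over 1.2-fold higher in replicate 2, against 10.3% of the 13138 protein-coding genes whose expected count averaged at least 20. These were Atp2a2, Atp2a3, Sln and Pln, and all 10 members passed the filter on counts, Pln at exactly 20. None was over 1.2-fold higher in replicate 1, against 10.8% of all.

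Atp2a2 had a log2 ratio of 0.35 (interval 0.31 to 0.40), or 1.28-fold. Sln was at 0.39 (interval 0.21 to 0.56), or 1.31-fold. Atp2a3 was at 0.30 (interval 0.19 to 0.41), or 1.23-fold, and with scaling by library totals it was at 0.26 and under 1.2-fold. All 3 were near the upper end of the spread over genes, whose 5th and 95th percentiles were -0.42 and 0.38. Pln had the largest ratio, 0.79, but its interval ran from -0.17 to 1.84. With 1 sample on each side, these ratios describe 2 mice and carry no test.

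The other members lay close to the median over genes, which was 0.01. Hrc was at 0.13, Casq2 at 0.10 and Atp2a1 at 0.09, while Casq1 was at -0.02, Srl at -0.03 and Pvalb at -0.09. So 7 members had ratios above 0 and 3 below, and no sign changed under any scaling, table or prior count tried. The counting interval left out 0 for 9 of 10 members, against 32.3% of all genes, and the members' high counts make their intervals narrow. The median over the 10 members was 0.11, and it was 0.071 with scaling by library totals and 0.083 with scaling by spike-in totals.

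In replicate 2, all 6 slow fibre markers (Myh7, Tnnt1, Tnni1, Tnnc1, Myl2 and Myl3) stood over 1.2-fold above replicate 1. Their median was 0.63 on the log2 scale. Of the members known from slow fibres, Atp2a2 was at 0.35, but Casq2 was at 0.10, or 1.07-fold. Pln was at 0.79 with an interval that included 0. Fast fibre markers had a median of 0.12, with 1 of 9 over 1.2-fold higher. For all marker counts here, the share over protein-coding genes with enough counts was 10.3% for replicate 2 and 10.8% for replicate 1. Erythroid genes were also higher in replicate 2, from 1138 to 2082 summed TPM, with 5 of 5 counted genes over 1.2-fold. Markers of smooth muscle and mural cells summed to 1071 and 1190 TPM, and endothelial markers to 156 and 172 TPM, with 4 of 8 and 3 of 6 over 1.2-fold higher. Leukocyte markers summed to 16.8 and 15.9 TPM, with 2 of 3 counted genes over 1.2-fold higher in replicate 2. Platelet markers summed to 13.7 and 15.0 TPM and neuron markers to 3.35 and 2.17 TPM, with 1 of 2 counted genes over 1.2-fold higher in replicate 1 in each. The part of slow fibres and of these other cells in the ratios of Atp2a2, Atp2a3, Sln and Pln was not tested.

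**Figure D3:**
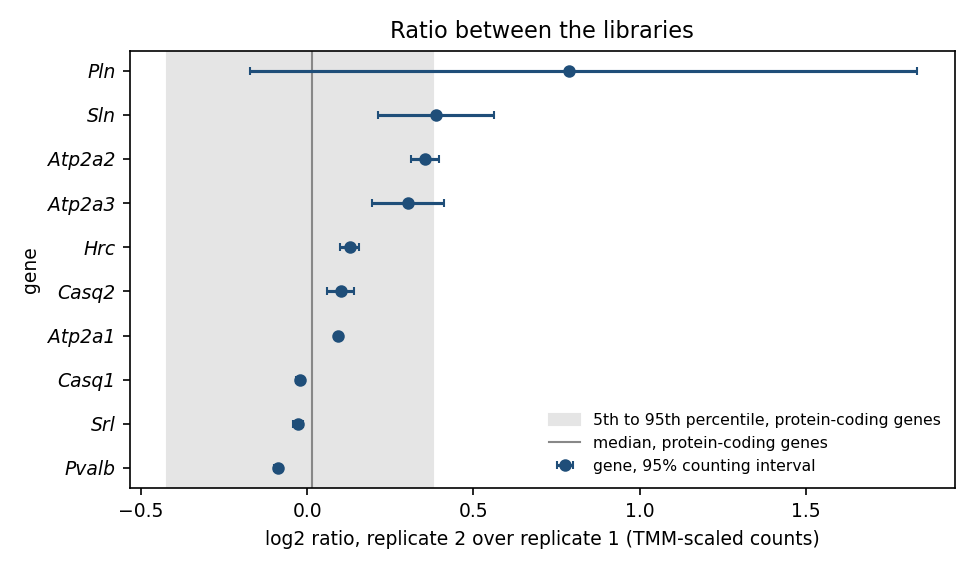
Log2 ratio of replicate 2 over replicate 1 for the 10 genes (points) with 95% counting intervals (bars), on TMM-scaled counts. The grey band is the 5th to 95th percentile of 13138 protein-coding genes and the line their median. Pln, Sln, Atp2a2 and Atp2a3 lie highest, and Pln has an interval that spans 0.

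The other genes of calcium handling give the setting for these levels. Calcium pumps and exchangers of other membranes were all low. Of 10 genes, 7 reached 1 TPM in both libraries, against 51.4% of all protein-coding genes. All 10 together summed to 90.8 and 84.3 TPM, far below Atp2a1 alone. Atp2b1, the widespread plasma membrane pump, had 29.6 and 26.2 TPM. Atp2c1, the Golgi pump, had 15.2 and 14.5 TPM, and Slc8a3, a sodium-calcium exchanger of skeletal muscle, had 15.3 and 12.4 TPM. None of the 9 counted was over 1.2-fold higher in replicate 2, against 10.3% of protein-coding genes with enough counts. In replicate 1, 1 of the 9 was, against 10.8%. It was Atp2b2, at -1.14 on the log2 scale and 77 and 33 counts.

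Genes of calcium release and of its coupling to the surface membrane were all below Casq1 and mostly above Atp2a2. Of these, 16 of 16 were at 1 TPM or more, against 51.4% of all protein-coding genes. Trdn, which encodes the triadin that anchors calsequestrin to the release channel, led with 574 and 584 TPM. Tmem38a, a potassium channel of the reticulum, had 424 and 431 TPM, and Sypl2, which encodes mitsugumin 29, had 426 and 411 TPM. The level of Trdn was thus close to that of Srl. Of the 16, none was over 1.2-fold higher in replicate 2, against 10.3% of protein-coding genes with enough counts. In replicate 1, 1 of the 16 was, against 10.8%. It was Ryr3, at -0.33 on the log2 scale.

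Lumenal calcium binders found in the reticulum of all cells were lower than the muscle-specific stores. Calr, the calreticulin gene, led the 8 with 99.6 and 96.7 TPM, followed by Hspa5 at 79.7 and 80.0 TPM and Calu at 72.1 and 69.2 TPM. In the first table, the summed level of all 8, 425 and 410 TPM, was below that of Srl alone. In the second table the 8 together were below Srl in replicate 1 only. In replicate 2 they stood above Srl, which was at 637 TPM there. None of the 8 was over 1.2-fold higher in either library, against 10.3% (replicate 2) and 10.8% (replicate 1) of protein-coding genes with enough counts. Canx had the largest ratio, -0.11 on the log2 scale.

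The other cytosolic calcium binders listed were far below Pvalb. Calm2 and Calm3, which encode calmodulin, had 127 and 115 TPM and 115 and 120 TPM. S100a1, a binder known from muscle, had 16.0 and 19.0 TPM and was 1.25-fold higher in replicate 2. Calb1 and Calb2, which encode calbindin and calretinin, stayed at 0.21 TPM or less in the first table. The second table gave Calb1 0.87 and 0.63 TPM. Ocm, which encodes the parvalbumin relative oncomodulin, was listed at 0 in both libraries. Within the parvalbumin family, then, RNA was found for Pvalb and not for Ocm at this depth.

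Entry of calcium from outside to refill the store uses the Stim sensors and Orai channels. All 6 genes of that list were at 1 TPM or more, against 51.4% of all protein-coding genes. Stim1 had 93.30 and 98.96 TPM, above Atp2a2 in each library. Stim2 had 21.6 and 14.2 TPM, Saraf 37.7 and 37.5 TPM, and Orai1 19.30 and 22.01 TPM. The remaining channel genes were lower, with Orai2 at 2.08 and 1.32 TPM and Orai3 at 4.34 and 4.01 TPM. Orai1 was 1.23-fold higher in replicate 2 and Orai2 was 1.46-fold higher in replicate 1.

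Mitochondria take up part of the calcium released, through the uniporter. Its pore gene Mcu had 27.7 and 26.5 TPM, and Smdt1, which encodes its essential small subunit, had 66.4 and 74.7 TPM. Micu2, which encodes a gatekeeper of the pore, had 23.1 and 22.9 TPM. Micu3 had 8.27 and 5.48 TPM, with a log2 ratio of -0.52. It was the 1 of 5 counted genes past 1.2-fold, higher in replicate 1, against 10.8% of protein-coding genes with enough counts. Mcub, which encodes the less active pore subunit, had 0.52 and 0.55 TPM.

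**Figure D4:**
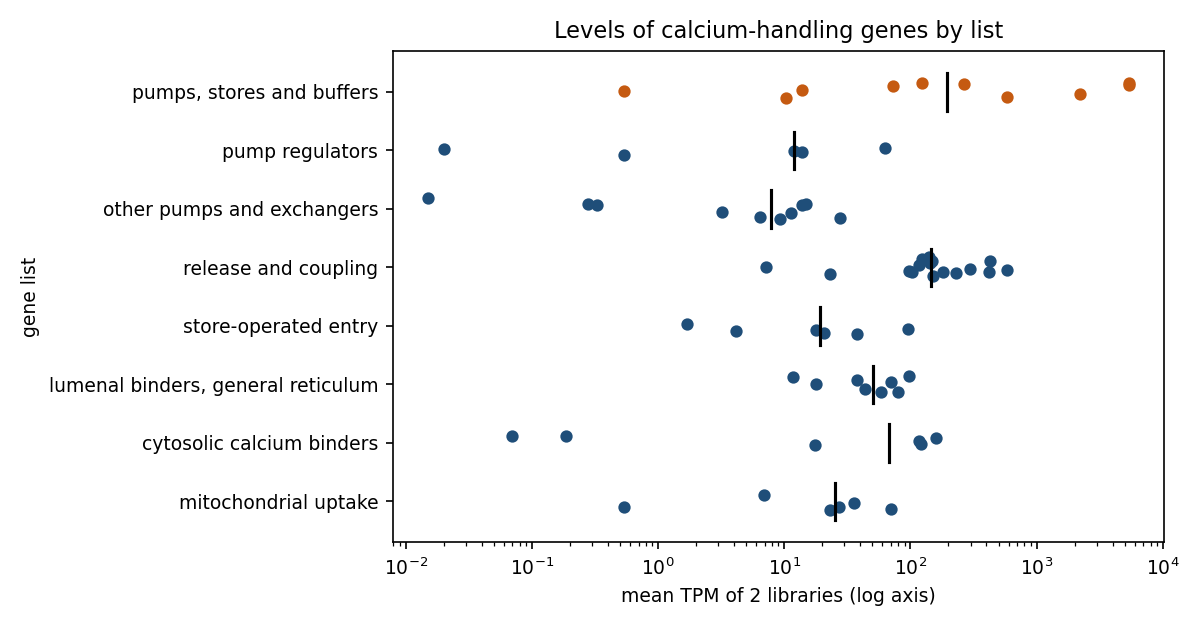
Mean TPM of 2 libraries (log axis) for the 10 pump, store and buffer genes (orange) and for the genes of 7 further lists (blue), with each list's median as a black line. Genes listed at 0 in both libraries are not drawn, and Sln and Pln appear among the pump regulators too. Pvalb, Atp2a1 and Casq1 lie to the right of every gene of the other lists.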

How the data were processed

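Expected counts and TPM per gene and transcript, and each transcript's percent of its gene, were deposited by the authors in RSEM's column layout. Per the file headers and notes they come from alignments to the mm10 transcriptome (GENCODE M21). TPM is scaled over all listed features, spike-ins and mitochondrial genes included. A second deposited transcript table, in kallisto's layout, gives estimated counts and TPM, here summed per gene. No source used here gives the programs, their versions, the strand setting or any use of parental alleles in alignment. Expected counts were rounded. Libraries were scaled with TMM in edgeR 4.0.16 (DESeq2 1.42.0 size factors as an alternative; R 4.3.3) over endogenous genes averaging at least 10 counts, with a prior count of 0.5. Spike-ins, the phiX control and features outside the annotation were left out. The ratio calculation was checked on simulated data with known ratios. Tables were handled in Python 3.11.15 with scipy 1.17.1, pandas 2.3.3 and numpy 2.4.6. Pair ratios used a pseudocount of 0.1 TPM. Without molecular identifiers reads may repeat 1 molecule, so intervals cover counting error only. Named are the 10 members, transcripts at 5% or more of their gene, all genes of a list of up to 7, and otherwise the 3 highest and the 1 with the largest ratio; further names were chosen after their values were seen, and 2 list genes are not reported here. The members and lists were chosen with earlier results of these data known. Alternatives were the second table, posterior means, other scalings, pseudocounts, filters and thresholds, and each replicate left out.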

Additional observations from a re-analysis of the deposited data

How the results depend on the processing

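No paired analysis was possible because there is 1 group. With the second table, the summed level of the 10 genes was 18459 TPM, the Atp2a1 share of pump TPM 98.0%, and the log2 ratios 5.79 for Atp2a1 over Atp2a2, 3.83 for Casq1 over Casq2, 3.95 for Sln over Pln and 2.15 for Casq1 over Srl. That table gave Atp2a1-202 11.6%, Atp2a2-202 71.5%, Pvalb-202 3.66%, Casq1-202 7.31% and Srl-203 0.171% of their genes. Scaling to nuclear protein-coding genes gave a sum of 32016 TPM, and counts not divided by length an Atp2a1 share of 97.9%. Posterior means gave 4.09 for Sln over Pln and 62.5% for Atp2a2-202, which was 64.0% with transcripts under 1 TPM left out. With a pseudocount of 1 TPM, Sln over Pln was 3.27. At 1.5-fold, 1 gene (Pln) was higher in replicate 2 in place of 4; library totals gave 3. The cause of these shifts was not tested. Leaving out 1 replicate gave sums of 13708 to 14435 TPM, Atp2a1 shares of 98.3% to 98.6%, and log2 ratios of 6.07 to 6.34 (Atp2a1 over Atp2a2), 4.10 to 4.22 (Casq1 over Casq2) and 4.33 to 4.63 (Sln over Pln). The ratio of Pvalb over Atp2a1 took either sign, -0.09 to 0.09. Of 99 values of main results under an alternative, 81 moved by less than 1 SD or, for counts, within 1.5 times. These include the values with 1 replicate left out. With 2 libraries, such values always lie within 1 SD of the mean, so they could not count as moved. Depth limits Pln, with 15 and 25 counts.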
